A study of Mus musculus with 24 samples.

Results

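The 10 genes described here (Slc7a1, Slc7a3, Slc7a5, Slc7a11, Slc3a2, Slc6a9, Slc1a4, Slc1a5, Slc38a2 and Slc43a1) encode amino acid transporters of the plasma membrane that are grouped with the transcriptional response to amino acid stress. They were chosen with earlier results of these data known and taken by gene symbol, and each symbol matched 1 of the 55450 genes of the deposited table. Whole tissue was taken from Thumpd1 wild-type (WT) and knockout (KO) mice and its RNA sequenced, from cerebellum, liver and testes, with 4 libraries from separate animals in each of the 6 groups. Thumpd1 encodes an adaptor that the acetyltransferase NAT10 needs to place N4-acetylcytidine on leucine and serine tRNAs. The KO allele was made in C57BL/6N eggs with Cas9 and guides to exons 1 and 4, passes through the germline so that every tissue carries it, and was backcrossed to C57BL/6. The mice were littermates matched for age, between 6 and 12 weeks old. The study's methods give mice of either sex, but Y-linked transcripts summed to at least 56.7 CPM in each of the 24 libraries, so all came from males.

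Thumpd1 itself stood at 22.4 ± 1.06 CPM (counts per 1000000 counts of the library; mean ± SD, n = 4) in WT cerebellum, 9.74 ± 0.401 in WT liver and 25.2 ± 0.840 in WT testes. In KO libraries it held at most 2 counts in cerebellum and at most 4 in liver, while KO testes kept 0.955 ± 0.200 CPM (23 to 41 counts). Totals per library ran from 16353797 to 37889615 expected counts, so that a gene without a count may still hold up to 3 counts, or between 0.0792 and 0.183 CPM, by counting error alone. Pcp2 and Gabra6, markers of Purkinje and granule neurons, were counted in all cerebellum libraries and had no count in the other tissues. Alb, the hepatocyte product albumin, reached at least 31344 CPM in every liver library against at most 11 counts elsewhere, and Prm1, a protamine of elongating spermatids, at least 1724 CPM in every testes library against at most 1 count elsewhere. Fewer cells of a type and less RNA per cell cannot be told apart in these whole-tissue libraries. The cerebellum libraries also fell apart by choroid plexus, whose 6 markers summed to 1052 and 1078 CPM in WT replicates 1 and 2 and to 362 and 362 CPM in KO replicates 7 and 8, against 17.8 to 23.5 CPM in the other 4.

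When amino acids run short, or ribosomes stall on tRNAs that are missing or uncharged, the kinase GCN2 phosphorylates the initiation factor eIF2α. General translation then falls, while translation of the transcription factor ATF4 rises. ATF4 pairs with C/EBP proteins on composite elements and raises genes of amino acid synthesis and uptake. The 10 transporters divide the work by substrate. SLC7A1 (CAT1) and SLC7A3 (CAT3) carry the cationic amino acids arginine, lysine and ornithine. SLC7A5 (LAT1), a carrier of leucine and other large neutral amino acids, and SLC7A11 (xCT), which exchanges cystine for glutamate, are light chains that reach the membrane with the heavy chain SLC3A2 (CD98). SLC6A9 (GlyT1) takes up glycine. SLC1A4 (ASCT1) and SLC1A5 (ASCT2) exchange small neutral amino acids, with glutamine a main substrate of the latter, SLC38A2 (SNAT2) brings in small neutral amino acids with sodium, and SLC43A1 (LAT3) lets large neutral amino acids cross by facilitated diffusion.

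The genes lie on 10 chromosomes of mm10. The cationic carriers Slc7a1 (ENSMUSG00000041313.14) and Slc7a3 (ENSMUSG00000031297.14) span chr5:148327410-148399904 and chrX:101079210-101086020, both on the minus strand. Slc7a5 (ENSMUSG00000040010.10) lies at chr8:121881150-121907694, Slc7a11 (ENSMUSG00000027737.10) at chr3:49892526-50443614 and the heavy chain gene Slc3a2 (ENSMUSG00000010095.13) at chr19:8706882-8723369, again on the minus strand. Slc6a9 (ENSMUSG00000028542.17) is on the plus strand at chr4:117834506-117875198, where 1986 of its 5141 exonic bases overlap exons of Gm17114, Ccdc24 and B4galt2 on the other strand. The strand setting of the counting is not given in the sources used here, so reads of Slc6a9 and of these neighbours may not be separated. No other member has an exon facing a gene on the opposite strand. Slc1a4 (ENSMUSG00000020142.12, chr11:20302180-20332713, minus), Slc1a5 (ENSMUSG00000001918.17, chr7:16781340-16798274, plus), Slc38a2 (ENSMUSG00000022462.7, chr15:96687392-96699730, minus) and Slc43a1 (ENSMUSG00000027075.16, chr2:84838850-84863594, plus) complete the set.

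RefSeq promoter windows (GRCm38.p6, 250 bases before to 50 after a start) were found for 7 of the 10 genes, in 10 windows, and Slc7a3, Slc7a5 and Slc1a5 had none. The windows were searched on both strands for TGATGNAA, the core letters of the composite C/EBP-ATF element, of which TGATGCAA is 1 form. TGATGNAA was present in 3.97% of 32851 promoter windows of this length, and in 2 of the 10 member windows. Both were TGATGCAA, a form found in 0.895% of all windows. The first is the window of Slc7a11, with a match on each strand that begin 66 and 47 bases before the start (0.0700% of all windows hold at least 2 matches of TGATGNAA), and the second is that of Slc1a4, with 1 match across the start. The stretches from 100 bases before to 20 bases after the start are given for these 2 genes and, for comparison, for Slc7a1 and Slc3a2, 2 genes without a match that changed in KO tissue. All 4 read 5′ to 3′ on the minus strand, and capitals mark the matches on either strand. The Slc3a2 window belongs to a start inside the annotated gene.
Slc7a11, chr3:50443594-50443713: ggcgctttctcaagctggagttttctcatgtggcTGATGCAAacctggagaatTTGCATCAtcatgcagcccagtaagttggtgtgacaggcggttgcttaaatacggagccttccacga
Slc1a4, chr11:20332694-20332813: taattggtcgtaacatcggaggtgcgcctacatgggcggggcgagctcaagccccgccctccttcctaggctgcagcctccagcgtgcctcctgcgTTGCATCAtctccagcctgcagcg
Slc7a1, chr5:148399885-148400004: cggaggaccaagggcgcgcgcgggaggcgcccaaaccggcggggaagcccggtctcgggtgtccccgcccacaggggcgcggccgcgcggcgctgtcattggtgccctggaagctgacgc
Slc3a2, chr19:8713878-8713997: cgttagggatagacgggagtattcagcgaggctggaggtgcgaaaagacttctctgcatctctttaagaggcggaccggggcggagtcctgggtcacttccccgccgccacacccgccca

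The tissues used different members of the set before any loss of Thumpd1. To compare levels between genes, CPM was divided by the exon length of each gene, as CPM per kb. In WT cerebellum the highest level was that of Slc38a2 (23.8 ± 0.0744 CPM per kb, SD, n = 4), ahead of Slc3a2 (19.3 ± 0.864), Slc6a9 (17.9 ± 0.638) and Slc7a5 (13.2 ± 0.747). Slc1a4 (4.92 ± 0.132), Slc7a1 (3.70 ± 0.167) and Slc7a11 (3.29 ± 0.0455) formed a middle group, and Slc1a5 (0.269 ± 0.0962), Slc7a3 (0.168 ± 0.0251) and Slc43a1 (0.0191 ± 0.0126) were low. The ranges of Slc3a2 and Slc6a9 overlapped over the 4 libraries, as did those of Slc1a5 and Slc7a3, and other neighbours in the order were separate.

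In WT liver, Slc6a9 (10.4 ± 2.09 CPM per kb), Slc3a2 (10.2 ± 1.01) and Slc38a2 (9.02 ± 1.34) were the highest, and their ranges over the 4 libraries overlapped. Slc1a4 followed at 2.36 ± 0.240, then Slc7a5 (0.911 ± 0.0652), Slc1a5 (0.624 ± 0.0687), Slc43a1 (0.568 ± 0.10) and Slc7a1 (0.118 ± 0.0245). Slc1a5 and Slc43a1 overlapped. The cystine carrier Slc7a11 held at most 4 counts in any liver library and Slc7a3 at most 1, both near the counting limit.

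In WT testes, the leucine carrier Slc7a5 (48.1 ± 2.21 CPM per kb) and its heavy chain Slc3a2 (30.7 ± 0.887) stood far above the others, of which Slc7a1 (4.92 ± 0.321), Slc38a2 (4.496 ± 0.363) and Slc1a5 (3.22 ± 0.302) were next. The ranges of Slc7a1 and Slc38a2 overlapped. Slc6a9 (1.02 ± 0.0862), Slc7a11 (0.873 ± 0.126) and Slc1a4 (0.559 ± 0.170) stood at about 1 CPM per kb or below, and Slc7a3 (0.146 ± 0.0434) and Slc43a1 (0.108 ± 0.0241) were at the bottom. Each neighbouring pair from Slc6a9 to Slc1a4 overlapped, and so did Slc7a3 and Slc43a1.

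**Figure D1:**
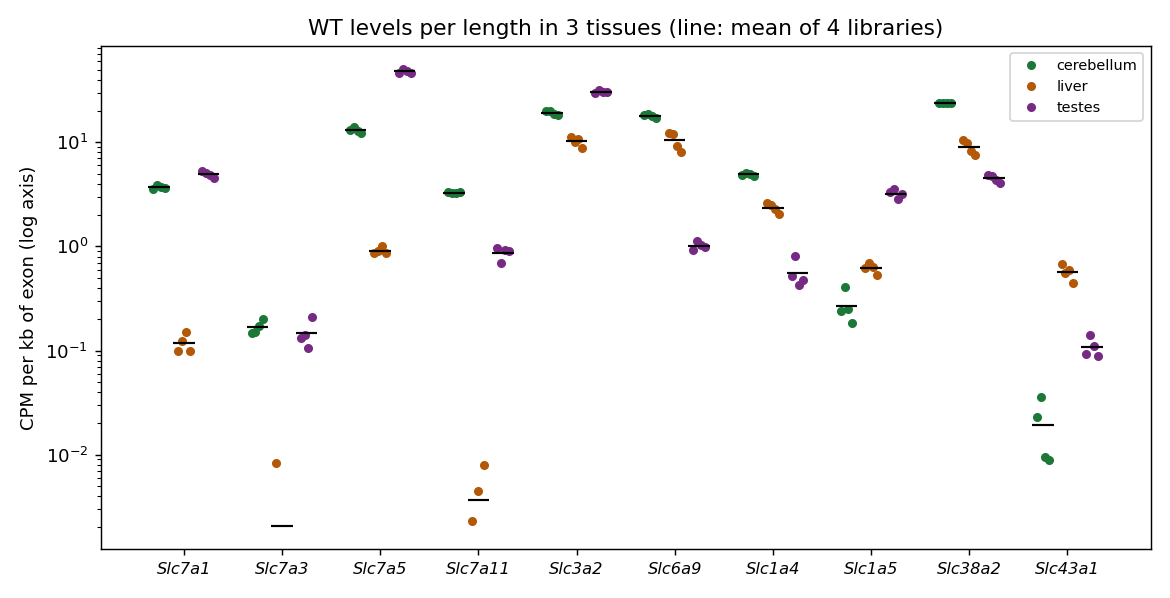
Level of each transporter gene in the WT libraries, in CPM per kb of exon on a log axis, with 1 point per library and a line at the mean of 4 (libraries at 0 counts are not drawn). Slc7a5 runs from 0.911 in liver to 48.1 in testes, while Slc3a2 stays between 10.2 and 30.7.

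Tested between tissues in 1 fit of all 24 libraries (limma-voom with TMM scaling, Benjamini-Hochberg adjusted p under 0.05), 9 of 10 members differed between WT testes and WT cerebellum, where 89.3% of all genes did. Slc1a5 was 3.86 higher in testes on the log2 scale, Slc7a5 2.13 higher and Slc3a2 0.93 higher, against a median of 0.40 over all genes. Slc6a9 (-3.88), Slc1a4 (-2.91), Slc38a2 (-2.15) and Slc7a11 (-1.66) were lower in testes, and Slc7a3 (0.02, adjusted p = 0.972) was not called.

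All 10 members differed between WT testes and WT liver, as did 89.7% of all genes, with Slc7a5 (4.78) and Slc7a1 (4.44) higher in testes and Slc6a9 (-4.28), Slc43a1 (-3.32) and Slc1a4 (-3.04) lower, against a median of 0.87 over all genes. Between WT cerebellum and WT liver 8 members were called, where 85.3% of all genes were. Slc7a1 (3.77) and Slc7a5 (2.66) were higher in cerebellum and Slc1a5 (-2.43) was lower. For Slc3a2 and Slc6a9 the direction depended on the scaling. Both were lower in cerebellum under TMM (-0.28 and -0.40), whose factors were 0.588 to 0.654 in liver and 1.36 to 1.43 in cerebellum, but 1.89-fold and 1.72-fold higher there in plain CPM. Slc1a4 also changed sign with the scale and was not called. The call of Slc3a2 (adjusted p = 0.0470) was lost in 13 of 24 fits that left out 1 library. The directions given above for called members other than Slc3a2 and Slc6a9 were the same on both scales.

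In cerebellum, loss of Thumpd1 went with higher mRNA of the cationic carriers Slc7a1 and Slc7a3, of the leucine carrier Slc7a5 and its heavy chain Slc3a2, and of the neutral exchanger Slc1a4. Of the 9 members with enough counts to test (at least 1 CPM in at least 4 of the 8 libraries), these 5 rose at an adjusted p under 0.05 (limma-voom with quantile normalization). Among all 16225 genes tested in this tissue 6.44% (1045 genes) were called, with 3.93% higher, and single omissions moved the number called to between 417 (WT replicate 1 left out) and 2317 (KO replicate 6 left out). No member fell (2.51% of all genes did), with 2 negative values at an unadjusted p under 0.05 and 0 called lower by edgeR or DESeq2. Slc7a3 passed the filter through its KO libraries alone, so it had to differ to be tested. Without it, 4 of 8 members rose, and the median of the 8 changes was 0.31 on the log2 scale against -0.01 over all genes.

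Slc7a3 had the largest change of the set. It stood at 0.563, 0.566, 0.653 and 0.765 CPM in WT replicates 1 to 4 (12 to 15 counts) and at 4.64, 3.91, 2.86 and 2.74 CPM in KO replicates 5 to 8 (52 to 82 counts). No KO library came near the WT range. The change was 2.37 ± 0.251 on the log2 scale (SE), or 5.18-fold, from a low level. In the fit without a filter on low counts, where its level could not decide whether it was tested, it was 2.35 and was called as well.

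Slc7a1, the more widely used cationic carrier, stood at 40.8, 45.3, 43.0 and 41.8 CPM in WT and at 59.3, 55.2, 57.8 and 57.7 CPM in KO cerebellum. All 4 KO libraries lay above all 4 WT libraries, and the rise was 0.42 ± 0.0464 (SE, adjusted p = 0.000375), or 1.34-fold. The neutral exchanger Slc1a4 went from 18.9, 19.9, 19.7 and 18.8 CPM in WT to 30.4, 29.8, 30.3 and 26.1 CPM in KO. Its groups were likewise separate, with KO replicate 8 below the other KO libraries, and it rose by 0.57 ± 0.0631 (adjusted p = 0.000372), or 1.49-fold.

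The leucine carrier and its partner rose by different amounts. Slc7a5 read 49.0, 52.5, 47.6 and 46.1 CPM in WT against 65.1, 60.05, 74.5 and 73.2 CPM in KO, a rise of 0.47 ± 0.0683 (adjusted p = 0.00197). KO replicates 7 and 8 were the highest, and replicates 5 and 6 were still above every WT library. In both genotypes the 2 libraries rich in choroid plexus had more Slc7a5. With the log2 sum of the plexus markers as a covariate, a fit added after the data were seen, Slc7a5 rose by 0.50 (adjusted p = 0.000141) and the same 5 members were called. Slc3a2 read 70.8, 70.5, 65.7 and 65.1 CPM in WT against 82.0, 76.5, 82.5 and 80.6 CPM in KO, a rise of 0.23 ± 0.0431 (adjusted p = 0.00879), or 1.17-fold. The groups of Slc3a2 did not overlap either.

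The cystine carrier gave a value of the other sign and was not called. Slc7a11, the member with 2 TGATGCAA matches in its promoter window, stood at 46.3, 45.1, 45.2 and 46.3 CPM in WT and at 43.1, 45.4, 41.3 and 42.5 CPM in KO cerebellum. The groups overlapped through KO replicate 6, and the change was -0.10 ± 0.0426 (adjusted p = 0.158). Slc38a2 lay within a narrow WT range of 209.9 to 211 CPM and at 197, 212, 192 and 189.8 CPM in KO, a value of -0.08 ± 0.0365 (adjusted p = 0.196). Slc6a9 was above all WT libraries (87.7 to 95.3 CPM) in all 4 KO libraries (95.5 to 107 CPM), yet its change of 0.13 ± 0.0434 was not called (adjusted p = 0.0859). With 6 abundant noncoding RNAs left out of the totals, an alternative added after the data were seen, its groups overlapped (93.6 to 102.3 CPM in WT, 101.99 to 115.3 in KO). Slc1a5 overlapped (0.765 to 1.70 CPM in WT, 1.30 to 1.84 in KO; 0.39 ± 0.239, adjusted p = 0.345), and Slc43a1, with 1 to 5 counts per library, was not tested. Apart from Slc7a3, 5 of the 8 tested members had every KO library above every WT library, a pattern that 8.79% of all tested genes shared.

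**Figure D2:**
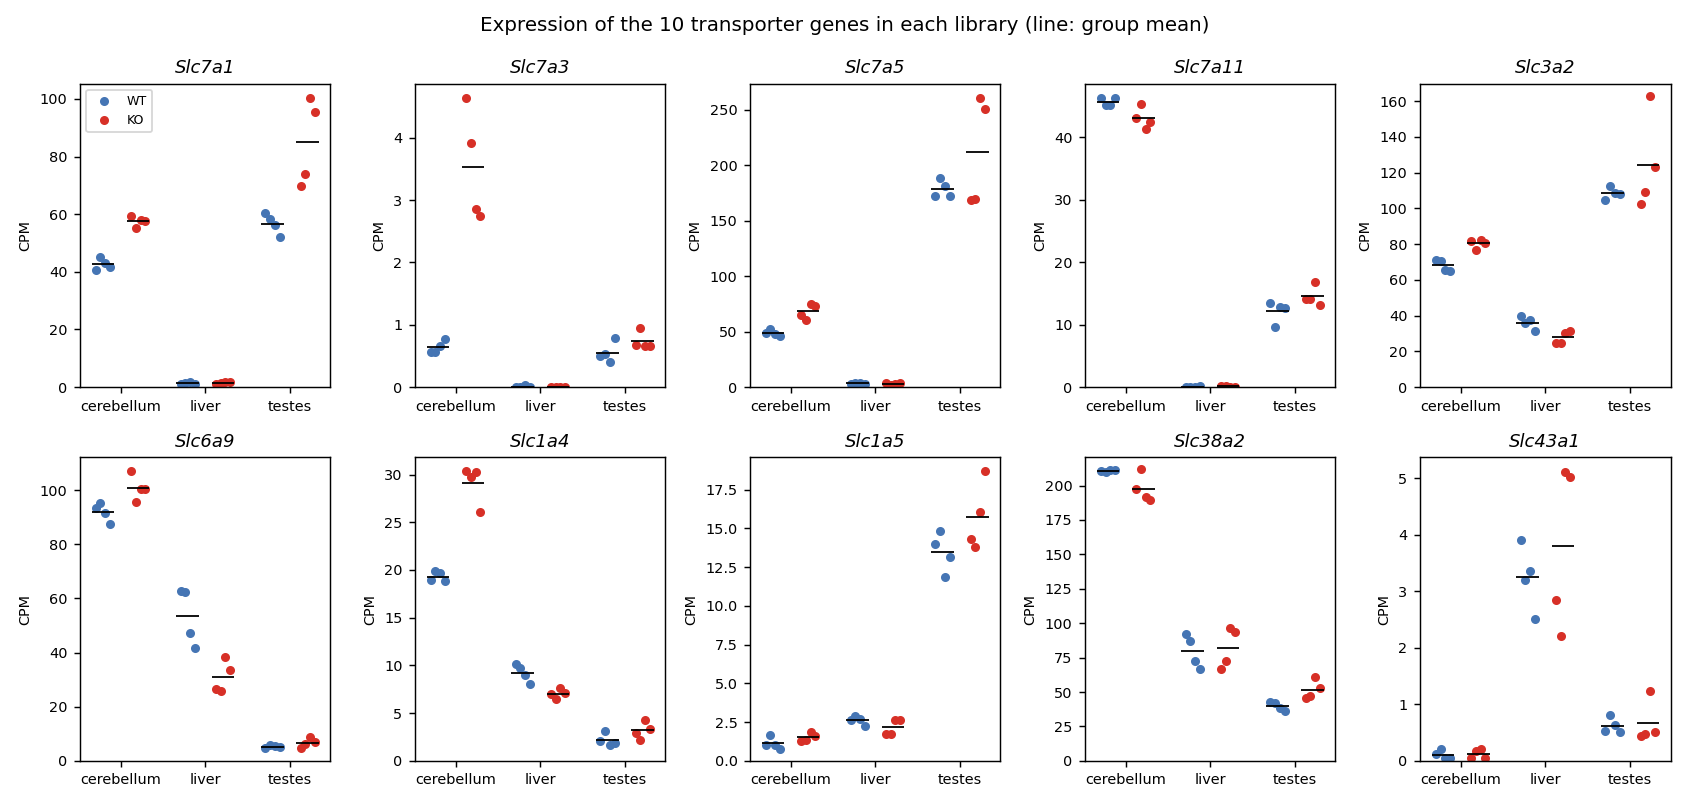
CPM of each transporter gene in all 24 libraries, with WT in blue, KO in red, 1 point per library in replicate order and a line at each group mean (each panel has its own linear axis from 0). The cerebellum groups of Slc7a1, Slc7a3, Slc7a5, Slc3a2, Slc6a9 and Slc1a4 are separate, and the liver groups of Slc6a9 and Slc1a4 are separate in the other direction.

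Markers of several brain cell types differed with genotype too. The summed level of 8 forebrain neuron markers was 117.8 to 126.6 CPM in WT and 158 to 192 CPM in KO cerebellum, with 3 of 7 tested markers called higher and no marker at 0. The 7 markers of granule cells, the main neurons of the cerebellar cortex, summed to 3874 to 3926 CPM in WT and 3456 to 3731 CPM in KO, with 3 called lower. The 9 markers of brain endothelium, cells that carry Slc7a5 and Slc7a1 at the blood-brain barrier, summed to 252 to 266 CPM in WT and 272 to 288 CPM in KO, with 0 of 9 called (2 at an unadjusted p under 0.05, 0 by edgeR and 2 by DESeq2). Midbrain markers (17 listed, 5 tested, 2 higher; 28.8 to 44.2 CPM in WT, 32.1 to 47.3 in KO), with Foxa1 and Foxa2 at 0, overlapped between genotypes. The sums for astrocytes (2 of 6 higher; 751 to 786 and 777 to 823 CPM), oligodendrocytes (2 of 6 higher; 2526 to 3031 and 2936 to 3138) and Purkinje cells (1 of 5 higher; 5153 to 5562 and 5383 to 5661) overlapped as well. With the log2 sum of the forebrain markers as a covariate, a fit chosen after the data were seen, none of the 5 members was called and 2 of 16225 genes were. The forebrain sums of WT and KO did not overlap, so genotype and marker level cannot be told apart in that fit. The changes in that fit were 0.32 for Slc7a1, 1.16 for Slc7a3, 0.75 for Slc7a5, 0.22 for Slc3a2 and 0.13 for Slc1a4. With the midbrain markers as the covariate, the same number of members was called as without it. The part of granule cells, endothelium, astrocytes, oligodendrocytes and Purkinje cells in the result was not tested. In a single fit of all 24 libraries only Slc7a3 and Slc1a4 were called, with adjusted p = 0.0704 for Slc7a1, 0.194 for Slc7a5 and 0.630 for Slc3a2.

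In liver the members that moved went the other way. The glycine carrier Slc6a9, the neutral exchanger Slc1a4 and the heavy chain Slc3a2 fell, no member rose, and 5 of the 8 tested members were not called. Among the 12816 genes tested in liver 5.91% (757 genes) were called, 3.12% lower and 2.79% higher. Single omissions moved the number called to between 284 (WT replicate 1 left out) and 795 (WT replicate 4 left out), and DESeq2 called 1408. The median over the 8 members was -0.23 on the log2 scale against -0.00 over all genes. No positive value reached an unadjusted p under 0.05, and edgeR and DESeq2 called 0 members higher.

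Slc6a9 went from 62.9, 62.5, 47.1 and 41.8 CPM in WT to 26.6, 25.7, 38.4 and 33.6 CPM in KO liver. Every KO library was below every WT library, with a wide spread in both groups, and the gene fell by 0.72 ± 0.127 on the log2 scale (adjusted p = 0.00890). None of its antisense neighbours Gm17114, Ccdc24 and B4galt2 passed the filter in liver, while Ccdc24 and B4galt2 did in the other tissues, and reads of them within Slc6a9 cannot be told apart in any. Slc1a4 went from 10.2, 9.75, 9.02 and 8.04 CPM to 6.96, 6.45, 7.60 and 7.14 CPM, again without overlap, and fell by 0.40 ± 0.0879 (adjusted p = 0.0241). These 2 members were separated with KO below WT, as were 5.31% of all tested genes.

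Slc3a2 read 39.5, 35.9, 37.7 and 31.2 CPM in WT liver and 24.7, 24.5, 30.5 and 31.5 CPM in KO liver. KO replicate 8 overlapped WT replicate 4, and the gene fell by 0.34 ± 0.0825 (adjusted p = 0.0360). The light chain Slc7a5 was low in this tissue, at 3.22 to 3.73 CPM in WT and 2.26 to 3.83 in KO, with a change of -0.17 ± 0.159 (adjusted p = 0.564, 95% interval -0.52 to 0.18). Slc7a1 (1.15 to 1.74 CPM in WT, 1.15 to 1.85 in KO) changed by 0.13 ± 0.215 (adjusted p = 0.777), which leaves room for a rise of the size seen in cerebellum, since its 95% interval ran from -0.35 to 0.60.

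The KO livers fell into pairs, with replicates 5 and 6 below replicates 7 and 8, for 7 of the 8 tested members, including the 3 that fell. Slc7a5 was the exception, and the share of all genes with this split was not counted. Slc38a2 read 92.4, 86.9, 72.7 and 67.0 CPM in WT and 66.6, 72.3, 96.7 and 93.4 CPM in KO liver, a change of 0.08 ± 0.105 (adjusted p = 0.685). KO replicates 7 and 8 were above the WT range and replicate 5 just below it. Slc43a1, a carrier of large neutral amino acids with its highest level in liver, read 5.12 and 5.02 CPM in KO replicates 7 and 8, 2.86 and 2.20 in replicates 5 and 6, and 2.52 to 3.91 in WT (0.21 ± 0.238, adjusted p = 0.643). Slc1a5 was 2.22 to 2.91 CPM in WT, 1.75 and 1.71 in KO replicates 5 and 6 and 2.67 and 2.64 in replicates 7 and 8 (-0.28 ± 0.180, adjusted p = 0.390).

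The share of counts taken by 6 abundant noncoding RNAs moved with these levels. It was 17.5%, 19.0%, 23.1% and 31.0% in WT replicates 1 to 4 and 27.2%, 26.4%, 18.8% and 17.5% in KO replicates 5 to 8, and KO replicates 5 and 6 were also the shallowest livers, with totals of 19958739 and 18145725. With those RNAs left out of the totals, an alternative added after the data were seen, Slc6a9 was 60.5 to 77.2 CPM in WT and 35.0 to 47.3 CPM in KO. Slc3a2 was then 44.3 to 49.0 CPM in WT and 33.2 to 38.2 CPM in KO, so that its groups no longer overlapped, and all 3 calls remained. Slc1a4 then read 9.56, 8.76, 9.36 and 8.65 CPM in KO replicates 5 to 8, no longer split into those pairs. The 5 markers of periportal hepatocytes summed to 1428 to 1828 CPM in WT and 1258 to 1432 CPM in KO (2 of 5 lower, 3 by edgeR and 4 by DESeq2, none at 0), and the 4 bile duct markers to 14.5 to 15.8 CPM and 17.4 to 18.9 CPM (none at 0; of the 2 tested, Sox9 was called higher at 0.36 and Krt19 was not called at -0.87, adjusted p = 0.0867). The 5 pericentral hepatocyte markers followed the split of the KO livers, with sums of 4528 and 4541 CPM for replicates 5 and 6, below the WT range of 4938 to 6048 CPM, and of 6286 and 6585 CPM for replicates 7 and 8, above it (1 of 5 higher, none at 0). Of these pericentral markers, edgeR called 1 higher and 1 lower, and DESeq2 1 higher and 2 lower. The 5 general hepatocyte markers summed to 40068 to 51610 CPM among WT livers, to 49368 and 50646 CPM for KO replicates 5 and 6 and to 66895 and 72510 CPM for KO replicates 7 and 8 (1 of 5 higher, 1 lower, none at 0). Their part in the result was not tested. The calls of Slc3a2 and Slc1a4 were near the threshold. Without a filter on low counts they had adjusted p = 0.0727 and 0.0542, and each was lost in 5 of 8 fits that left out 1 library, with an adjusted p of up to 0.107 and 0.0849. Both were lost without WT replicate 1, 2 or 3 or KO replicate 6, Slc3a2 also without KO replicate 5 and Slc1a4 without KO replicate 8, whereas Slc6a9 was called in all 8.

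**Figure D3:**
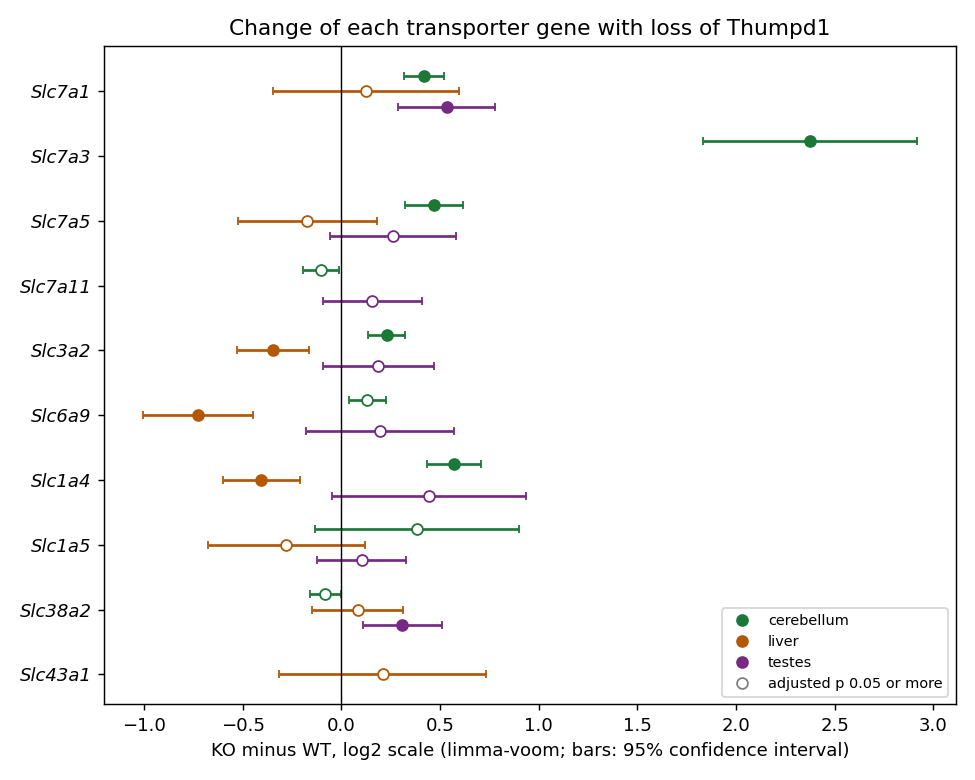
KO minus WT change of each transporter gene on the log2 scale in cerebellum (green), liver (brown) and testes (purple), with 95% confidence intervals from limma-voom and filled points where the adjusted p was under 0.05. Slc7a3 in cerebellum lies at 2.37, and Slc6a9, Slc1a4 and Slc3a2 have liver values from -0.72 to -0.34 opposite positive cerebellum values.

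In testes Slc7a1 and Slc38a2 rose in KO, and all 8 tested members had positive changes. Testes had the most changed genes of the 3 tissues, with 20.5% of the 19329 tested genes (3957) called, 9.74% higher in KO and 10.7% lower, and the median over the 8 members was 0.23 against 0.00 over all genes. Single omissions moved the number called to between 1711 (WT replicate 3 left out) and 4913 (KO replicate 5 left out). No member fell, none had a negative value, and edgeR and DESeq2 called 0 members lower. Slc7a3 (0.401 to 0.786 CPM in WT, 0.655 to 0.953 in KO) and Slc43a1 (0.503 to 0.807 in WT, 0.448 to 1.23 in KO) were too low to be tested.

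Slc7a1 read 60.5, 58.5, 56.1 and 51.9 CPM in WT testes and 69.8, 74.0, 100.3 and 95.5 CPM in KO testes. The groups did not overlap, KO replicates 7 and 8 were well above replicates 5 and 6, and the rise was 0.53 ± 0.111 on the log2 scale (adjusted p = 0.00942). Slc38a2 read 42.5, 42.3, 38.1 and 36.0 CPM in WT and 45.6, 47.0, 61.1 and 52.9 CPM in KO, a rise of 0.31 ± 0.0915 (adjusted p = 0.0349). These 2 members had all KO libraries above all WT libraries, as did 18.8% of all tested genes. The call of Slc38a2 was lost in 6 of 8 fits that left out 1 library (without any of the WT libraries, KO replicate 7 or KO replicate 8), with an adjusted p of up to 0.112.

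The same split within the KO group ran through the leucine carrier and its heavy chain. Slc7a5 read 172, 189, 181 and 172 CPM in WT testes, 168 and 169 CPM in KO replicates 5 and 6, and 261 and 251 CPM in KO replicates 7 and 8. The first pair was below the WT range and the second above it, and the change of 0.26 ± 0.145 was not called (adjusted p = 0.213). Slc3a2 read 105 to 112 CPM in WT and 102, 109, 163 and 123 CPM in KO (0.19 ± 0.128, adjusted p = 0.304). The values of Slc6a9 (4.57, 6.05, 8.87 and 7.02 CPM in KO; 4.70 to 5.77 in WT), Slc1a4 (2.94, 2.20, 4.26 and 3.36 in KO; 1.67 to 3.17 in WT) and Slc1a5 (14.3, 13.8, 16.1 and 18.7 in KO; 11.9 to 14.8 in WT) were also highest in KO replicates 7 and 8, and none was called. Slc7a11 was 13.1 to 16.9 CPM in KO and 9.59 to 13.5 in WT (0.16 ± 0.115, adjusted p = 0.340).

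Markers of Sertoli cells and spermatids moved with genotype and with this split. The 8 Sertoli cell markers summed to 247, 248, 221 and 215 CPM in WT and to 294, 294, 405 and 349 CPM in KO replicates 5 to 8, with 7 of 8 markers higher and none at 0. The 6 spermatid markers summed to 8768 to 9184 CPM in WT and to 8155, 7952, 6177 and 6399 CPM in KO replicates 5 to 8, with 3 of 6 lower and none at 0. The 5 Leydig cell markers summed to 997 to 1103 CPM in WT, to 860, 874 and 869 CPM in KO replicates 5, 6 and 8 and to 1412 CPM in KO replicate 7 (1 of 5 lower, none at 0), so that this library stood apart from the other KO testes. With the log2 sum of the Sertoli markers as a covariate, chosen after the data were seen, Slc7a1 stood at 0.00 (adjusted p = 0.989) and Slc38a2 at -0.12, no member was called, and 8 of 19329 genes were. The Sertoli sums of WT and KO did not overlap, so genotype and marker level cannot be told apart in that fit. The 6 spermatogonia markers followed the split too. Their sum was 81.7 to 91.2 CPM in WT testes, and among KO testes it was 88.9 and 94.7 CPM for replicates 5 and 6 against 133 and 113 CPM for replicates 7 and 8, with 1 of 5 tested markers higher and none at 0, and their part in the result was not tested. Spermatocyte markers, at 680 to 746 CPM in WT and 708 to 779 CPM in KO, had 0 of 5 called (1 at an unadjusted p under 0.05, 0 by edgeR and by DESeq2).

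**Figure D4:**
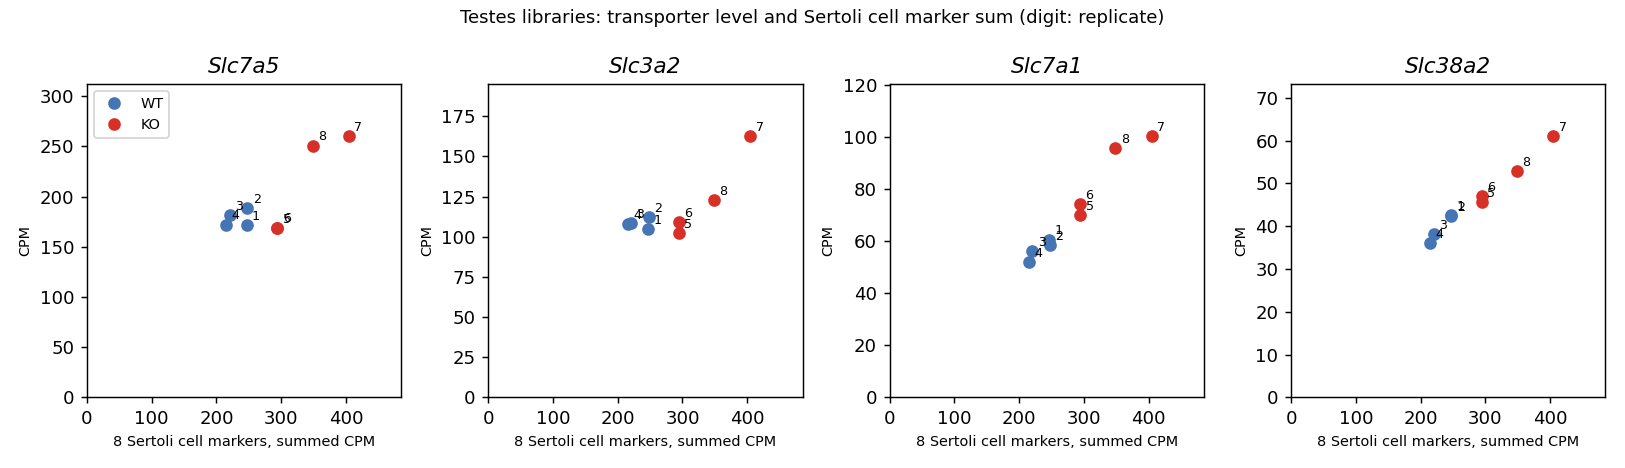
CPM of Slc7a5, Slc3a2, Slc7a1 and Slc38a2 in each testes library (vertical axis) against the summed CPM of 8 Sertoli cell markers (horizontal axis), with WT in blue, KO in red and the replicate number beside each point. KO replicates 7 and 8 are the highest in both, and for Slc7a5 KO replicates 5 and 6 lie below the WT points at a higher marker sum.

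Whether the KO effect itself differed between tissues was tested in the fit of all 24 libraries, for members tested in both tissues. Between cerebellum and liver, 2 of 7 members differed, where 4.06% of 11489 genes (466) did. Single omissions moved the number of genes called to between 226 (cerebellum KO replicate 7 left out) and 739 (liver WT replicate 4 left out). The change of Slc1a4 was 0.98 ± 0.162 more positive in cerebellum (adjusted p = 0.00153) and that of Slc6a9 0.90 ± 0.185 more positive (adjusted p = 0.00807). Slc3a2, called in opposite directions in these tissues, had a difference of 0.62 ± 0.184 that missed the threshold (adjusted p = 0.0628) and passed it with edgeR (adjusted p = 0.0206). For Slc7a1, which rose in cerebellum and was not called in liver, the difference was 0.23 ± 0.342 (adjusted p = 0.755), and for Slc7a5 it was 0.60 ± 0.391 (adjusted p = 0.404). Slc7a3 could not be compared, being at 0 or 1 count in liver.

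Between testes and liver, 3 of 7 members differed, where 12.3% of 11611 genes (1429) did. Single omissions moved the number of genes called to between 782 (testes KO replicate 7 left out) and 1979 (testes KO replicate 5 left out). The difference was 1.05 ± 0.287 for Slc6a9 (adjusted p = 0.0216), 0.91 ± 0.238 for Slc1a4 (adjusted p = 0.0178) and 0.52 ± 0.171 for Slc3a2 (adjusted p = 0.0496), against a median of 0.10 over all genes. The difference of Slc3a2 was lost in 19 of 24 fits that left out 1 library, and none of the 3 was called without testes KO replicate 7. These comparisons share the liver libraries, so they do not count as separate evidence on liver. Between testes and cerebellum, limma-voom called 0 of 8 members (1 at an unadjusted p under 0.05, 0 by edgeR), where 10.2% of 13753 genes (1398) were called. Single omissions gave 885 (testes KO replicate 7 left out) to 1580 genes (liver KO replicate 6 left out). Slc38a2 came closest, with a change 0.43 ± 0.165 more positive in testes (adjusted p = 0.101).

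Other genes that ATF4 is known to raise were examined beside the transporters, as a list of 28 genes without transporters. Like the members and the other lists, it was chosen with earlier results of these data known, so the shares are descriptive only. In cerebellum 10 of 21 tested genes rose, beside 3.93% of all genes, and 0 fell (1 negative value at an unadjusted p under 0.05, 0 called lower by edgeR and 1 by DESeq2), with a median change of 0.26. The first 5 by p were Atf5, a transcription factor of the same family (15.8 ± 0.868 CPM in WT, 28.6 ± 0.83 in KO, SD, n = 4; 0.84 on the log2 scale), Asns, asparagine synthetase (33.4 ± 1.05 and 47.8 ± 2.63 CPM; 0.50), Chac1, a glutathione-degrading enzyme (3.09 ± 0.383 and 7.12 ± 0.832 CPM; 1.19), Mthfd2, of mitochondrial one-carbon metabolism (5.11 ± 0.539 and 8.63 ± 0.558 CPM; 0.72), and Sesn2, a leucine sensor upstream of mTORC1 (9.47 ± 0.947 and 13.5 ± 1.02 CPM; 0.49). Of its 1993 exonic bases, Atf5 has 164 that face exons of Nup62 and Il4i1 on the other strand.

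In liver 1 of 20 genes of this list rose and 1 fell, with a median of -0.01, beside 2.79% of all genes higher and 3.12% lower. A further gene, Fgf21, is left out of that count because it passed the filter through its KO libraries alone. Asns went from 1.46 ± 0.854 to 10.05 ± 3.42 CPM (2.72, adjusted p = 0.00628) while Fgf21, a hormone of the starved liver, held 0.464 ± 0.360 CPM among WT and 2.16 ± 0.539 CPM among KO livers. Gpt2, an alanine aminotransferase, fell by 0.34 (adjusted p = 0.0174). In the same livers Slc6a9, Slc1a4 and Slc3a2 fell. In testes, where 9.74% of all genes rose and 10.7% fell, 0 of 18 rose and 2 fell, Asns by 0.20 and Psph, the last enzyme of serine synthesis, by 0.29, while Slc7a1 and Slc38a2 rose. At an unadjusted p under 0.05, 3 of the listed genes had positive and 4 negative values. With edgeR 1 was called higher and 1 lower, and with DESeq2 2 higher and 2 lower. Psph faces Cct6a over 452 of its exonic bases.

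Among 44 other amino acid transporter genes, 2 of 29 tested rose and 1 fell in cerebellum (3.93% and 2.51% of all genes), with a median of 0.02. These were Slc38a10 (0.20) and the Purkinje cell glutamate transporter Slc1a6 (0.18), which rose, and Slc16a10, a carrier of aromatic amino acids, which fell by 0.46 (adjusted p = 0.0336, 0.0393 and 0.0467). The list had 1 gene higher and 1 lower with edgeR, and 2 higher and 2 lower with DESeq2. In liver 0 of 18 rose (2 at an unadjusted p under 0.05, 0 by edgeR or DESeq2) and 1 fell, the taurine carrier Slc6a6 by 0.34 (adjusted p = 0.0149), with a median of -0.04, beside 2.79% and 3.12% of all genes. In testes 2 of 29 rose and 4 fell, with a median of 0.03, beside 9.74% and 10.7% of all genes. The cationic carrier Slc7a2, a paralog of Slc7a1, rose by 0.55 (adjusted p = 0.00399) and Slc6a14 by 0.55 (adjusted p = 0.00528). Slc38a1, a paralog of Slc38a2, fell by 1.14 (adjusted p = 0.00378), from 7.15 ± 0.496 to 3.61 ± 1.44 CPM, and Slc36a3 by 0.46 and the glutamate carrier Slc1a3 by 0.39 also fell. Exons on the other strand face Slc38a10 over 367 bases, Slc6a6 over 117 and Slc7a2 over 635.

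Slc7a11 is also a target of NRF2, the transcription factor of the oxidant response, so 12 other NRF2 targets were counted. In cerebellum 0 of 10 tested were called (3 higher at an unadjusted p under 0.05, 1 higher by edgeR and 0 by DESeq2), beside 6.44% of all genes, with a median of 0.07. In liver 1 of 11 rose, Gclc of glutathione synthesis (0.28, adjusted p = 0.0181; 2.79% of all genes rose), where edgeR called 0 and DESeq2 1, and in testes 1 of 11 fell, beside 10.7% of all genes, Srxn1, which restores oxidised peroxiredoxins (fell by 0.57, adjusted p = 0.00194). Their medians were -0.12 and -0.00.

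**Figure D5:**
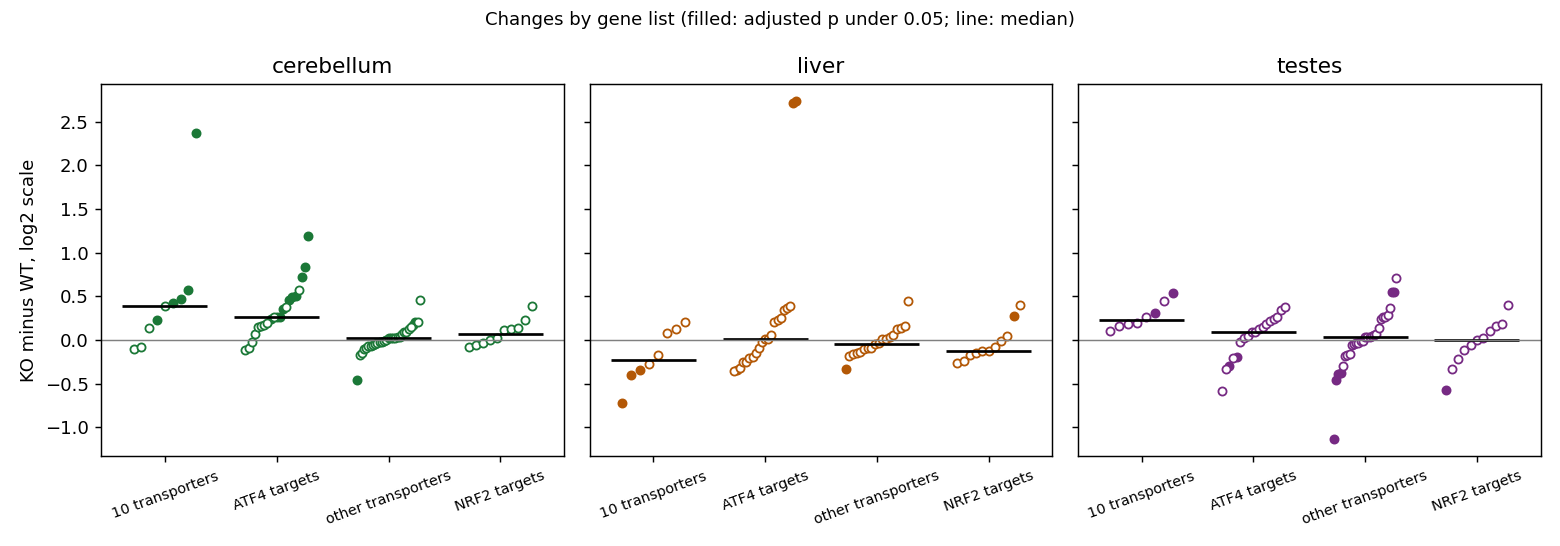
KO minus WT changes on the log2 scale for the tested genes of each list in cerebellum, liver and testes, with 1 point per gene, filled where the adjusted p was under 0.05, and a line at the median. In that order the transporter medians are 0.39 (0.31 without Slc7a3), -0.23 and 0.23, and the ATF4 target medians 0.26, 0.01 (-0.01 without Fgf21) and 0.09.

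The genes most like each member were ranked by Pearson correlation of log2 CPM over the 24 libraries, which are 8 libraries from each of 3 tissues and share the differences between those tissues. Among 16305 candidates the 3 closest genes reached r from 0.958 to 0.997. They were Mmd2, Daam2 and Minar2 for Slc7a1, Zcchc12, AC127249.1 and Slc17a6 for Slc7a3, Atp2b4, Mapkbp1 and Arhgap33 for Slc7a5, Kcnk2, Dzip3 and Acsl6 for Slc7a11, and Pld3, Mob3a and Xab2 for Slc3a2. For Slc6a9 they were Irgq, Aplp2 and Dop1b, for Slc1a4 Ywhab, Wfs1 and Traf3, for Slc1a5 Dgat1, Mif4gd and Zbtb42, for Slc38a2 Zscan26, Tcf25 and Cpne2, and for Slc43a1 F7, Myl12a and Slc45a3.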

How the data were processed

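Total RNA was depleted of ribosomal RNA, made into stranded libraries and sequenced as paired ends. The authors aligned the reads to mm10 with STAR and deposited RSEM expected counts per gene for GENCODE M21, not normalized; versions and the strand setting are not given in the sources used here. Between 12.3% and 16.6% of nonzero values were not whole, and counts were rounded for edgeR and DESeq2 only. All 24 columns matched the labels. In each tissue, genes with at least 1 CPM in at least 4 of 8 libraries were quantile normalized and fitted with limma-voom (limma 3.58.1, R 4.3.3, two-sided, Benjamini-Hochberg over all genes tested, threshold 0.05). The 1 CPM filter, quantile normalization and limma-voom are those the study's methods state. The number of libraries in the filter was set to the group size. Differences of the KO effect between tissues and WT tissue differences came from 1 limma-voom fit of all 24 libraries with TMM factors (edgeR 4.0.16). Alternatives were edgeR's quasi-likelihood test, DESeq2 1.42.0, TMM in place of quantiles, no filter, 1 fit for all tissues, single libraries left out, marker covariates and a replicate block. The fits were tested on simulated counts. The members and lists were chosen with earlier results of these data known. Named genes are the members, Thumpd1, up to 5 called genes of lowest p per list and tissue, and the 3 most correlated genes per member without pseudogenes and genes with Gm or Rik names (clone-named models such as AC127249.1 stayed in); the antisense neighbours of Slc6a9 and the tissue markers were added. CPM per kb divides CPM by the union of M21 exons. Depth sets the counting limit given with the library totals.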

Additional observations from a re-analysis of the deposited data

Results flagged for a closer look

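In cerebellum, KO replicate 8 had 26.1 CPM of Slc1a4, apart from the other KO libraries by Dixon's test, the only case in 50 groups of 4 tested over the members. Chance alone marks about 1 in 20 such groups.

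The KO effect differed between tissues for 3 members. It was more positive in cerebellum than in liver by 0.90 on the log2 scale for Slc6a9 and by 0.98 for Slc1a4, and more positive in testes than in liver by 1.05 for Slc6a9, 0.91 for Slc1a4 and 0.52 for Slc3a2.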

How the results depend on the processing

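Within each tissue, edgeR, DESeq2 and TMM scaling, as well as the midbrain and choroid plexus marker covariates in cerebellum and the totals without 6 noncoding RNAs in liver, left the number of members called in each direction as reported. In 1 fit of 24 libraries the count fell from 5 to 2 rises in cerebellum, from 3 to 1 falls in liver and from 2 to 1 rises in testes; without a filter it was 1 in liver and 1 in testes (Slc38a2, adjusted p = 0.0599); and with the forebrain or Sertoli marker covariate, both added after the data were seen, it was 0 in both tissues. The forebrain and Sertoli marker sums did not overlap between WT and KO, so these fits cannot tell genotype and marker level apart. Under the Sertoli covariate Slc7a5 (-0.43), Slc3a2 (-0.42), Slc6a9 (-0.43), Slc1a4 (-0.42), Slc1a5 (-0.11) and Slc38a2 (-0.12) changed sign. Leaving out single libraries gave 4 to 5 rises and 0 to 1 falls in cerebellum (Slc7a3 falls below the filter without any KO library, and Slc38a2 was called lower, adjusted p = 0.0301, and Slc6a9 higher, adjusted p = 0.0225, without KO replicate 6), 1 to 3 falls in liver (fewest without WT replicates 1, 2 or 3 or KO replicate 6) and 1 to 2 rises in testes. Members with a tissue difference of the KO effect numbered 2 to 3 for cerebellum against liver, 0 to 3 for testes against liver and 0 in every fit for testes against cerebellum, and WT differences 6 to 9, 9 to 10 and 9. Signs changed in single omissions only for differences near 0, those of testes against cerebellum for Slc1a4 (-0.23 to 0.13) and Slc6a9 (-0.0205 to 0.32) and of WT testes against WT cerebellum for Slc7a3 (-0.17 to 0.15). Replicate numbers are shared across tissues but not tied to animals in the labels, and same-numbered libraries correlated weakly over 24 pairs (r from -0.13 to 0.26, 9 above 0.1, 11 highest with their own number). With the replicate block, 4 members in place of 2 differed between cerebellum and liver (1004 genes in place of 466), adding Slc7a5 (0.64, adjusted p = 0.0338) and Slc3a2 (0.63, adjusted p = 0.00916), and edgeR also called Slc3a2 (adjusted p = 0.0206). Over all genes, the number called without a filter was 685 of cerebellum, 514 of liver and 2900 of testes genes, against 1045, 757 and 3957, DESeq2 called 1408 in liver, the choroid plexus covariate called 1720 in cerebellum, and 1 fit of 24 libraries called 195 in cerebellum and 1584 in liver. Leaving out single libraries gave 417 to 2317 genes in cerebellum (2317 without KO replicate 6, 999 without WT replicate 2 and 417 to 545 without any other), 284 to 795 in liver (284 to 462 without WT replicate 1, 2 or 3 or KO replicate 8) and 1711 to 4913 in testes (1711 to 2597 without WT replicate 2, 3 or 4 or KO replicate 7). The cause of these differences was not tested. Counts limit Slc7a3 and Slc7a11 in liver and Slc43a1 in cerebellum.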
